A study of Danio rerio with 8 samples.

Results

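The proteasome genes were taken as every entry of the count table whose zebrafish symbol starts with psma, psmb, psmc, psmd, psme, psmf or psmg followed by a digit. The rule found 59 entries of 31901 genes. They carry 58 symbols, because psmd2 has 2 entries, both on unplaced scaffolds. Of these entries, 24 encode subunits of the core particle and 21 encode subunits of the regulatory particle. The other 14 encode activators, an inhibitor, assembly chaperones or other proteins. Psmc3ip and psme3ip1 meet the rule by their symbols but encode proteins that are not proteasome components. Sem1 and adrm1 encode regulatory particle subunits but do not meet the rule, and are described with the proteasome partners. Of the 59 entries, 53 passed the filter on low counts and were tested, and 6 did not.

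The proteasome is the protease complex that degrades proteins marked with ubiquitin in the cytosol and nucleus. Its core particle is a barrel of stacked rings, in which outer alpha subunits form the gate and inner beta subunits carry the proteolytic sites. The regulatory particle caps the barrel: its base holds a ring of ATPases that unfold substrates and thread them into the core, and its lid holds the deubiquitinase that removes the ubiquitin chain.

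The RNA came from cells sorted for GFP out of zebrafish larvae of the line BAC(pdgfrb:Gal4ff)ncv24;UAS:GFP, 4 days after fertilization. The pdgfrb regulatory sequences drive Gal4ff and through it GFP, and the labels call the sorted cells myoseptal (from the connective tissue between muscle segments) and perivascular (around vessels). The 4 lesioned libraries came from larvae with a mechanical spinal cord lesion 1 day earlier, and the 4 unlesioned libraries came from larvae of the same line and age without a lesion. All groups carry both transgenes and went through trypsin dissociation, cell sorting and SMART-seq2, a method that amplifies cDNA from small amounts of RNA. How many larvae or clutches went into a library is not given, so p-values reflect the variation among these libraries only, and that variation can be technical.

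Total counts ranged from 19552807 to 25358885 per library. Libraries numbered 3 and 4 stood apart from those numbered 1 and 2 in both groups, with 13.8% to 16.8% of counts on mitochondrial genes against 8.91% to 10.2%. Results are therefore also given within each pair of numbers. The labels do not say what this split is. All 12 listed markers of the reporter cells were detected. They took 0.831% to 1.74% of counts in unlesioned and 1.26% to 2.33% in lesioned libraries, lowest in unlesioned 4. The collagens col1a1a, col1a2 and col5a1 held most of this sum. They, scxa, thbs4b, pax9 and nkx3-2 had a higher mean CPM in lesioned libraries. Pdgfrb (213 in unlesioned and 195 in lesioned libraries), pdgfra, tnmd (642 and 187), mkxa and twist1a had a lower one. The part of the reporter cell markers in the results was not tested. The summed level of 11 macrophage and microglia markers was 0.00108% to 0.0355% in unlesioned and 0.00831% to 0.111% in lesioned libraries, highest in lesioned 4. All 11 were detected in at least 1 library. Apoeb alone made up 52.6% to 95.5% of these marker counts. Without it, the other 10 markers summed to 0.0003% to 0.00372% in unlesioned and 0.000653% to 0.00501% in lesioned libraries, and 6 had a higher and 4 a lower mean CPM in lesioned libraries. The part of these markers in the results was not tested. Mural cell markers took 0.64% to 2.26% of counts in unlesioned and 0.492% to 0.833% in lesioned libraries. Skin markers took 0.0145% to 0.577% in unlesioned and 0.0361% to 0.43% in lesioned libraries. Skeletal muscle markers took 0.0711% to 0.263% and 0.0715% to 0.452%. Unlesioned 4 was the highest unlesioned library in each of these 3 lists. The part of these lists was likewise not tested.

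Proteasome transcripts were more abundant in all 4 lesioned libraries than in any unlesioned library when summed. Levels are given as CPM, the gene's count rescaled to a common library total (the edgeR CPM unit) after adjustment by the trimmed mean of M-values. The 59 entries summed to 4294, 3919, 3509 and 3149 CPM in unlesioned libraries 1 to 4, and to 6250, 5473, 5531 and 6824 CPM in lesioned libraries 1 to 4. The means were 3718 ± 497 (SD, n = 4) and 6020 ± 642 (SD, n = 4), a 1.62-fold difference in level. As a share of raw counts, with no scaling between libraries, the entries took 0.287% to 0.441% in unlesioned and 0.515% to 0.758% in lesioned libraries. In RNA from sorted cells in bulk, more cells of a type and more RNA per cell cannot be told apart.

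No single proteasome gene passed the test across all genes. In edgeR's quasi-likelihood test with Benjamini-Hochberg adjustment, 0 of 53 tested entries had an adjusted p under 0.05, against 3 of 15759 genes (0.019%). The lowest adjusted p among them was 0.153, for psmc3. At an unadjusted p under 0.05, 31 entries were higher in lesioned libraries, where the share over all genes was 6.07%, and 1 was lower, where it was 5.48%. With the replicate number as a block, 36 entries were higher at that threshold, where the share over all genes was 7.32%, and 0 passed the adjusted threshold. DESeq2 gave an adjusted p for 47 of the 53 entries and called 9 higher and 0 lower. Among the 9286 genes with a DESeq2 adjusted p, 2.81% were called higher. The 9 entries were psmc3, psma4, psma6b, psma8, psmb1, psmb4, psmb7, psmd14 and psmd4a. Of these, psma6b and psmd4a share 12.2% and 49.0% of their exon bases with other genes.

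The direction was shared widely. The log2 fold change was positive for 50 of the 53 tested entries, against 47.7% of all genes tested. In 25 entries every lesioned library lay above every unlesioned library, against 5.32% of all genes. In 1 entry, psmg3, every lesioned library lay below, against 3.91% of all genes. By library, 27 of the 53 tested entries were highest in lesioned 4, while 22 were lowest in unlesioned 4 and 18 in unlesioned 3. The entries share the same 8 libraries, so these counts are not 53 separate observations. The median log2 fold change was 0.69, beside -0.04 over all genes and -0.08 over the 2831 genes with a mean of at least 50 CPM. Within libraries 1 and 2 the median was 0.52, and within libraries 3 and 4 it was 0.93. Scaling by library size alone moved the median of all genes to 0.12 and that of the proteasome entries to 0.85, leaving the gap between them at 0.73 under both scalings. Psma6l, psmb10 and psmf1 reached the filter's level in all 4 lesioned but not in all 4 unlesioned libraries, and psme4a the reverse. Of the 50 entries past the filter's level in all 4 unlesioned libraries, 47 had a positive log2 fold change and in 24 every lesioned library lay above every unlesioned one.

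**Figure D1:**
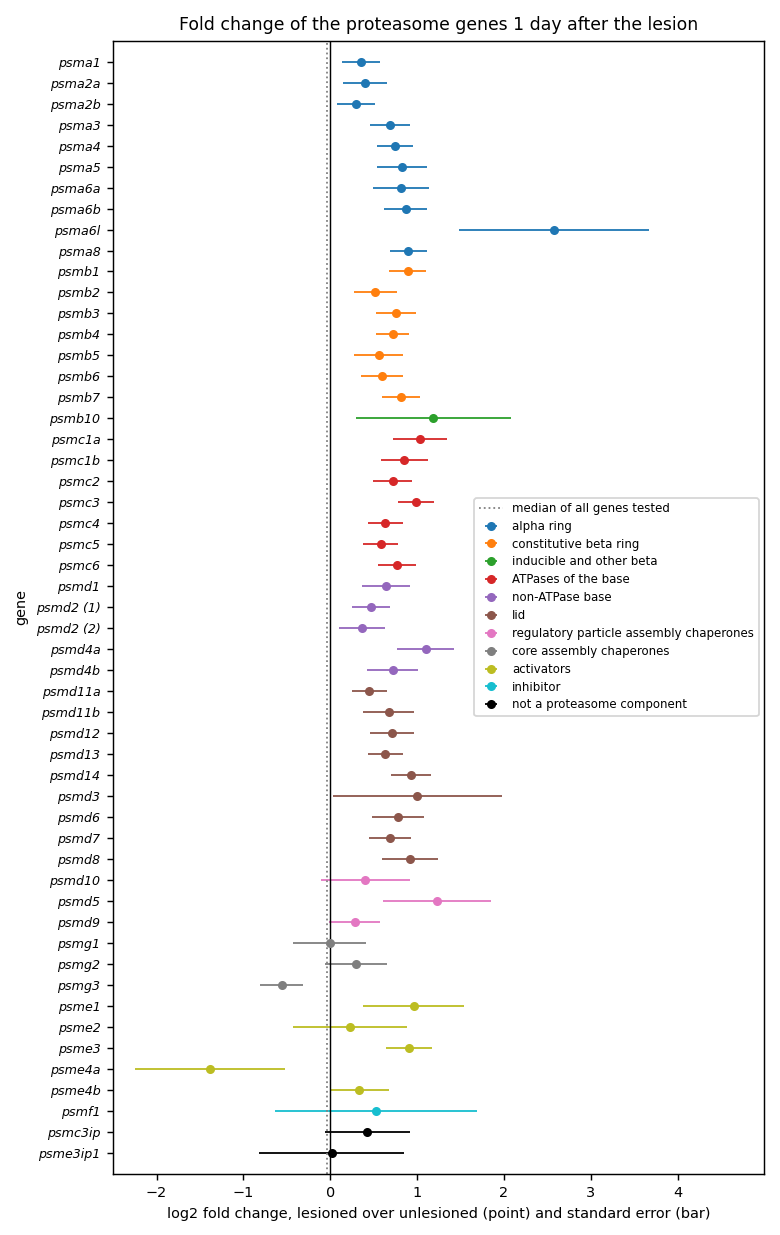
Log2 fold change of each tested proteasome entry, lesioned over unlesioned (x axis), by gene (y axis), with points for the edgeR estimate, bars for its standard error and colours for the role. The points of 50 of the 53 entries lie above 0, and the dotted line marks the median of all genes tested, -0.04.

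All tested alpha ring genes had a higher mean level in lesioned libraries, with 10 of 10 log2 fold changes positive and a median of 0.78. In 6 genes the groups did not overlap. Over all genes, 47.7% were positive and 5.32% were higher without overlap. The 6 include psma6l, which reached the filter's level in all 4 lesioned but not in all 4 unlesioned libraries. Alpha subunits form the outer rings and the gate of the core. Psma8 (chromosome 20, 18306122 to 18313864, minus strand, GRCz11), which the reference tables also list under the older name psma7, measured 120, 119, 83.6 and 103 CPM in unlesioned libraries and 238, 192, 158 and 206 CPM in lesioned libraries. Every lesioned library lay above every unlesioned one. The log2 fold change was 0.90 ± 0.21 (SE), with an edgeR adjusted p of 0.169. Psma4 measured 123, 103, 102 and 104 CPM in unlesioned libraries and 179, 158, 152 and 234 CPM in lesioned libraries. The groups did not overlap, and unlesioned 1 stood above the other unlesioned libraries. Its log2 fold change was 0.74 ± 0.21 (SE; edgeR adjusted p = 0.216).

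Psma3 had the most counts of the alpha genes, at 281, 216, 278 and 232 CPM in unlesioned and 318, 319, 457 and 530 CPM in lesioned libraries. The groups did not overlap, and the difference was larger in libraries 3 and 4 (log2 fold change 1.02) than in libraries 1 and 2 (0.36), a gap that was not tested. Psma1, psma2a and psma2b had the smallest differences of the ring, with log2 fold changes of 0.36 ± 0.22, 0.40 ± 0.25 and 0.29 ± 0.22 (SE). Their groups overlapped. Psma2a and psma2b share 10.2% and 12.8% of their exon bases with other genes, so their levels are uncertain. Psma6l, a paralog of psma6 at very low level, measured 0.729, 0.367, 0.0963 and 0.047 CPM in unlesioned libraries and 3.11, 2.26, 1.18 and 0.951 CPM in lesioned libraries. Its groups did not overlap, but its log2 fold change of 2.57 had an SE of 1.09, and unlesioned 3 and 4 lay below the 3-count limit of their libraries.

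All 7 constitutive beta genes were higher on average, with a median log2 fold change of 0.72, and 4 of them had groups that did not overlap. Over all genes, 47.7% had a positive log2 fold change and 5.32% were higher without overlap. Psmb1 (chromosome 13, 1142724 to 1151410, minus strand, GRCz11), a structural beta subunit, measured 137, 143, 134 and 91.2 CPM in unlesioned and 232, 207, 222 and 277 CPM in lesioned libraries. The groups did not overlap, and unlesioned 4 was the lowest. The log2 fold change was 0.89 ± 0.21 (SE; edgeR adjusted p = 0.169). Psmb4, also structural, measured 145, 128, 121 and 107 CPM in unlesioned and 221, 193, 185 and 224 CPM in lesioned libraries, again without overlap. Its log2 fold change was 0.72 ± 0.19 (SE; edgeR adjusted p = 0.194).

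Of the 3 subunits with a proteolytic site, psmb7 had groups that did not overlap and psmb5 and psmb6 had groups that did. Psmb7, the trypsin-like subunit in mammals, measured 215, 210, 225 and 131 CPM in unlesioned and 371, 312, 336 and 361 CPM in lesioned libraries (log2 fold change 0.82 ± 0.22 SE; edgeR adjusted p = 0.197). Psmb5, the chymotrypsin-like subunit in mammals, measured 93.4, 101, 54.9 and 51.1 CPM in unlesioned and 138, 111, 83.5 and 109 CPM in lesioned libraries. Lesioned 3 lay inside the unlesioned range, and the log2 fold change was 0.56 ± 0.28 (SE; edgeR adjusted p = 0.504). Psmb6, the caspase-like subunit in mammals, measured 101, 88.0, 54.1 and 68.6 CPM in unlesioned and 139, 110, 101 and 122 CPM in lesioned libraries. Lesioned 3 and unlesioned 1 were nearly level, and the log2 fold change was 0.59 ± 0.24 (SE; edgeR adjusted p = 0.370).

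The inducible and tissue-specific beta genes were at or near 0. In mammals psmb8, psmb9 and psmb10 replace the constitutive catalytic subunits in the immunoproteasome, which interferon induces, and psmb11 serves in the thymus. Of 7 such entries only psmb10 passed the filter, at 3.46, 3.19, 0.144 and 1.74 CPM in unlesioned and 6.26, 3.53, 7.37 and 2.33 CPM in lesioned libraries. The groups overlapped, and the log2 fold change was 1.19 ± 0.89 (SE; edgeR adjusted p = 0.696). Psmb8a had 0 counts in all 8 libraries, which allows up to 0.123 to 0.157 CPM per library for counting error alone. Psmb9a had 27 counts in lesioned 4, 1 in unlesioned 3 and 0 elsewhere. Lesioned 4 was also the library with the most macrophage marker counts, at 1043 without apoeb. Unlesioned 4 had 823 such counts and 0 counts of psmb9a. A link between psmb9a and these markers was not tested. Psmb12 had at most 29 counts, in unlesioned 4. Psmb11a, psmb11b and psmb13a had at most 2 counts in any library. Psmb8a and psmb13a share 24.3% and 24.2% of their exon bases with other genes, and reads there were not assigned to a gene.

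The 7 ATPase genes of the base all had edgeR unadjusted p-values under 0.05 and positive log2 fold changes, with a median of 0.77. Of these genes, 6 had groups that did not overlap. Over all genes, 6.07% were higher at that p and 5.32% were higher without overlap. Psmc3 (chromosome 7, 38680034 to 38685337, plus strand, GRCz11) measured 97.4, 89.8, 75.8 and 69.2 CPM in unlesioned and 186, 141, 142 and 190 CPM in lesioned libraries. The lowest lesioned library lay well above the highest unlesioned one. Its log2 fold change was 0.99 ± 0.21 (SE), with an edgeR adjusted p of 0.153, and it was 0.80 within libraries 1 and 2 and 1.26 within libraries 3 and 4. Psmc6 measured 194, 165, 204 and 185 CPM in unlesioned and 268, 247, 337 and 427 CPM in lesioned libraries (log2 fold change 0.77 ± 0.22 SE; edgeR adjusted p = 0.225). Psmc4 had the most counts of the ring, at 259, 216, 277 and 214 CPM in unlesioned and 352, 298, 393 and 458 CPM in lesioned libraries. Neither gene's groups overlapped, and lesioned 4 was highest for both. Psmc1a, the exception, had a mean of 72.2 ± 25.0 CPM in unlesioned and 148 ± 44.5 CPM in lesioned libraries (SD, n = 4), and its groups overlapped because lesioned 3, at 96.5 CPM, lay below unlesioned 1, at 104 CPM.

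The other subunits of the base had positive log2 fold changes in 5 of 5 entries, with a median of 0.64 and 2 entries without overlap. The shares over all genes were 47.7% positive and 5.32% higher without overlap. Psmd1, a large scaffold subunit, measured 85.9, 96.1, 53.8 and 98.6 CPM in unlesioned and 142, 172, 120 and 87.0 CPM in lesioned libraries. Lesioned 4, the highest library for 27 of the 53 tested entries, lay within the unlesioned range here. Psmd4 encodes a ubiquitin receptor. Psmd4a measured 7.29, 10.1, 11.1 and 8.04 CPM in unlesioned and 20.4, 14.7, 20.3 and 22.6 CPM in lesioned libraries, without overlap (log2 fold change 1.1 ± 0.33 SE; edgeR adjusted p = 0.229). Psmd4a shares 49.0% of its exon bases with other genes, so its level is uncertain. Psmd4b measured 43.4, 36.2, 28.2 and 54.7 CPM in unlesioned and 62.2, 51.5, 54.9 and 98.7 CPM in lesioned libraries, and its groups overlapped. The 2 psmd2 entries, for the other scaffold subunit, had log2 fold changes of 0.47 ± 0.22 and 0.36 ± 0.27 (SE). They may split the reads of 1 gene, so each level is uncertain.

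All 9 lid genes that met the symbol rule had positive log2 fold changes, with a median of 0.71. Of these, 6 had groups that did not overlap. The shares over all genes were 47.7% positive and 5.32% higher without overlap. Psmd14 (chromosome 11, 10832560 to 10850936, minus strand, GRCz11), the deubiquitinase of the lid, measured 78, 70.5, 48.6 and 50.5 CPM in unlesioned and 119, 108, 102 and 141 CPM in lesioned libraries. Its groups did not overlap, and the log2 fold change was 0.93 ± 0.23 (SE; edgeR adjusted p = 0.183). Psmd13 measured 99.1, 102, 104 and 72.6 CPM in unlesioned and 149, 133, 138 and 166 CPM in lesioned libraries. Psmd8 measured 150, 171, 54.0 and 106 CPM in unlesioned and 260, 204, 206 and 237 CPM in lesioned libraries. Both are structural lid subunits with groups that did not overlap, and psmd8 was widely spread among the unlesioned libraries.

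Psmd3, a structural lid subunit chosen for description after its values were seen, split by replicate number more than by group (chromosome 19, 48049202 to 48059334, plus strand, GRCz11). It measured 78.5, 66.9, 7.17 and 5.26 CPM in unlesioned and 125, 153, 17.5 and 20.8 CPM in lesioned libraries. Its mean was 8.35-fold higher in libraries 1 and 2 than in libraries 3 and 4. Among the tested entries only psme3ip1, at 5.13-fold, also passed 4-fold, and 6.68% of all genes did so in either direction. Within each pair of numbers both lesioned libraries lay above both unlesioned ones. So they did for 24.4% of all genes in libraries 1 and 2 and for 18.7% in libraries 3 and 4. Of the 53 tested entries, 42 and 41 did so. The log2 fold changes of psmd3 were 0.93 in libraries 1 and 2 and 1.69 in libraries 3 and 4. Over all 8 libraries the log2 fold change was 1.00 ± 0.97 (SE; edgeR adjusted p = 0.782). The edgeR adjusted p was 0.137 with the replicate block and 0.104 with a term for libraries 1 and 2 against 3 and 4, and it ran up to 0.961 over the other alternatives.

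**Figure D2:**
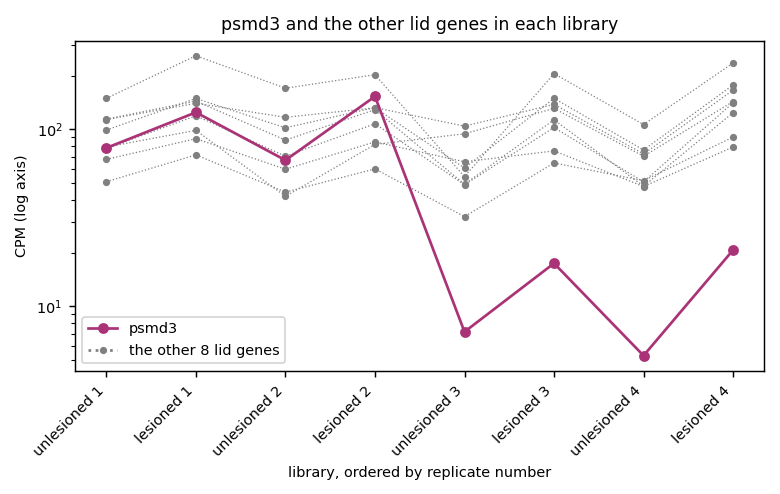
CPM on a log axis (y) of psmd3 (purple) and the other 8 lid genes (grey) in each library, ordered by replicate number (x). Psmd3 lies between 66.9 and 153 CPM in libraries 1 and 2 and between 5.26 and 20.8 CPM in libraries 3 and 4, and in every numbered pair the lesioned library is the higher one.

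The core and the regulatory particle differed between the groups by similar amounts. Per kilobase of exon, the 24 core entries had a mean level of 65.8, 61.3, 55.0 and 45.2 CPM per kb in unlesioned and 99.7, 84.6, 85.7 and 107 CPM per kb in lesioned libraries. The 21 regulatory entries had 48.7, 45, 37.6 and 36.6 CPM per kb in unlesioned and 73.4, 65.0, 65.0 and 81.0 CPM per kb in lesioned libraries. Neither particle's groups overlapped, and the ratio of the group means was 1.66 for the core and 1.69 for the regulatory particle.

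The log2 ratio of core to regulatory level was 0.43 ± 0.10 in unlesioned and 0.41 ± 0.03 in lesioned libraries (SD, n = 4). The difference of -0.03 was smaller than the spread between unlesioned libraries, whose ratios ran from 0.30 in unlesioned 4 to 0.55 in unlesioned 3. The 24 core entries in these ratios include the 7 inducible and tissue-specific beta entries, at or near 0. With the median of the log2 levels of the tested genes in place of the mean level, the difference was -0.15. That median covered 18 core and 21 regulatory genes. With mean levels and without psmd3 the difference was -0.02.

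**Figure D3:**
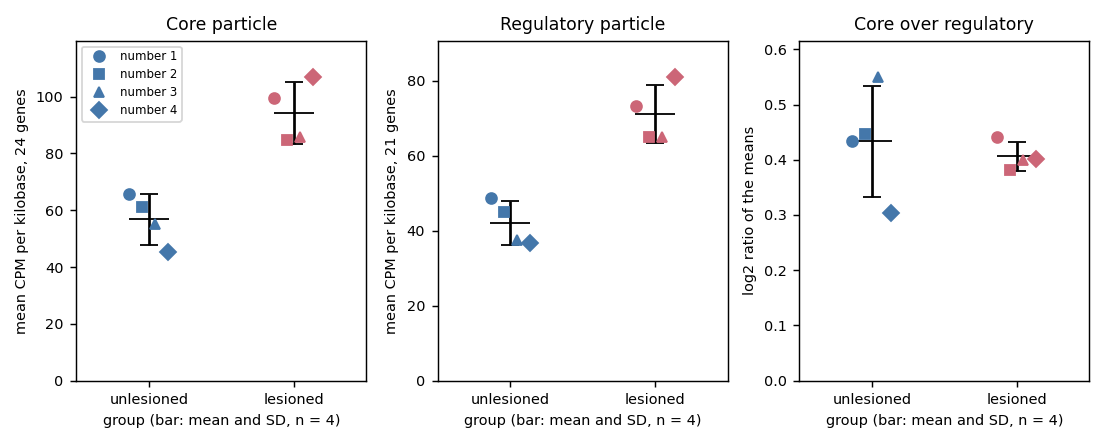
Mean CPM per kilobase of exon of the core entries (left) and the regulatory entries (middle), and the log2 ratio of these means (right), by group (x axis), with a point per library shaped by its replicate number and bars for mean and SD (n = 4). Both particles are higher in all 4 lesioned libraries, at means of 94.2 against 56.8 and 71.1 against 42.0, while the ratios of the groups overlap.

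Subunits that occur in equal numbers in the complex had unequal levels per kilobase of exon. The length used was the merged exon length of the annotation, which can differ from that of the expressed transcript. Differences in level between subunits are therefore uncertain. With paralogs of 1 subunit summed, the 14 core subunits ran from 47.7 to 198 CPM per kb in unlesioned libraries, a 4.15-fold range, with psma1 lowest and psma3 highest. The 17 listed regulatory subunits ran from 9.63 CPM per kb for psmd7 to 122 CPM per kb for psmc4, a 12.7-fold range. The lowest of each particle had long merged exons, at 2633 bases for psma1 and 4624 for psmd7, against 1271 for psma3 and 1980 for psmc4. Psmd7 also shares 31.1% of its exon bases with other genes, so its level is uncertain. The fold between the groups varied less than the levels, from 1.28 for psma1 to 1.87 for psma8 in the core and from 1.35 for psmd2 to 2.00 for psmd3 in the regulatory particle. In lesioned libraries the levels ran over 5.23-fold in the core and 13.2-fold in the regulatory particle.

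**Figure D4:**
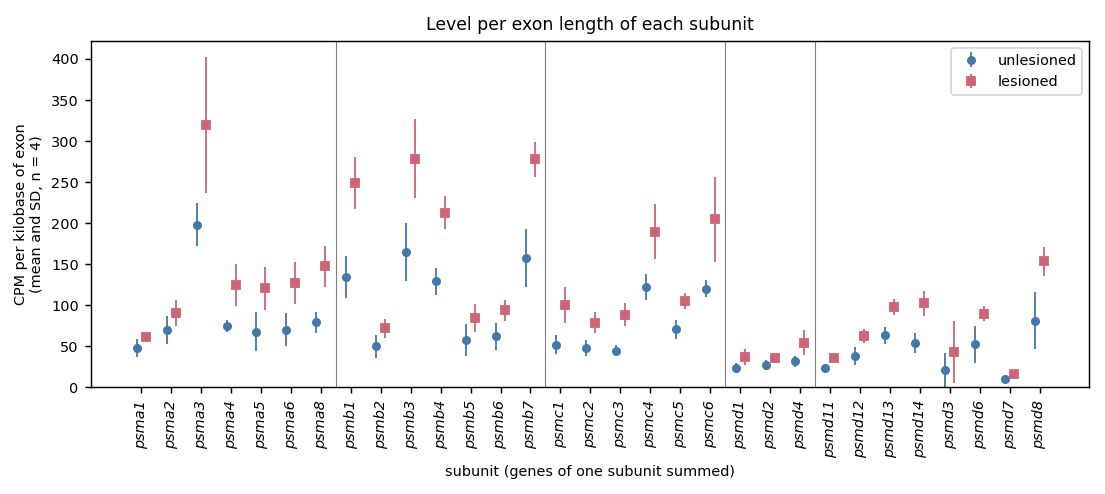
CPM per kilobase of exon (y axis; mean and SD, n = 4) of each core and regulatory subunit (x axis), in unlesioned (blue) and lesioned (red) libraries, with vertical lines between the alpha ring, beta ring, ATPases, other base subunits and lid. Every lesioned mean is above its unlesioned mean, with folds from 1.28 to 2.00.

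Where a subunit has a pair of paralogs, the share of each was much the same in both groups for most pairs. Per kilobase, psma2a made up 76.0% ± 4.67 of its pair with psma2b in unlesioned and 78.3% ± 1.62 in lesioned libraries (SD, n = 4). Psma6a made up 52.3% ± 8.48 and 53.0% ± 3.49 of its pair with psma6b, and psmc1a made up 56.1% ± 11.7 and 58.6% ± 5.32 of its pair with psmc1b. These differences were smaller than the SD of the unlesioned libraries. Psmd11a made up 50% ± 8.51 and 46.0% ± 7.76, and psmd4a 16.8% ± 6.39 and 20.3% ± 3.26. Psme4a, of an activator pair, made up 12% ± 6.02 in unlesioned and 3.63% ± 2.49 in lesioned libraries, and lesioned libraries ran from 0.757% to 6.70% against 7.09% to 19.5%. These shares rest on few psme4a counts, 25, 41, 54 and 6 in lesioned libraries 1 to 4. Psme4a also reached the filter's level in all 4 unlesioned but not in all 4 lesioned libraries. How reads were split between near-identical copies is uncertain. Psma2a, psma2b, psma6b and psmd4a share 10.2%, 12.8%, 12.2% and 49.0% of their exon bases with other genes. The shares of these pairs are therefore uncertain. The shares also rest on the merged exon lengths, such as 1753 bases for psma2a and 4890 for psma2b.

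Over all 8 libraries, assembly factors had smaller median differences than the subunits, a contrast that was not tested. For chaperones of the regulatory particle it held in libraries 1 and 2, with medians of 0.05 against 0.53 for the subunits. In libraries 3 and 4 it reversed, at 1.18 against 0.96. Chaperones of the core had medians of -0.10 and 0.02 within these pairs, against 0.53 and 1.00 for core subunits. Psmg1, psmg2 and psmg3 encode chaperones that help build the core. Of these 3, 1 had a positive log2 fold change, against 47.7% of all genes. Psmg3 measured 55.3, 38.9, 50.5 and 38.5 CPM in unlesioned and 26.8, 26.5, 32.7 and 38.5 CPM in lesioned libraries. The groups met at unlesioned 4 and lesioned 4, which were almost equal, and the log2 fold change was -0.56 ± 0.25 (SE; edgeR adjusted p = 0.421). Psmg2 measured 19.8, 18.0, 23.0 and 27.0 CPM in unlesioned and 29.8, 30.1, 12.1 and 36.1 CPM in lesioned libraries, and lesioned 3 was the lowest of all 8. Psmg1 had means of 26.7 ± 10.2 and 26.6 ± 10.7 CPM (SD, n = 4). Pomp, a core assembly factor outside the symbol rule, was named after its values were seen. It had a log2 fold change of 0.54 ± 0.28 (SE), with overlap.

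Chaperones that build the regulatory particle had 3 of 3 positive log2 fold changes, against 47.7% of all genes, and all their groups overlapped. Psmd5 measured 9.30, 3.93, 1.11 and 4.37 CPM in unlesioned and 12, 11.1, 6.10 and 14.7 CPM in lesioned libraries (log2 fold change 1.23 ± 0.62 SE; edgeR adjusted p = 0.507). Lesioned 3 lay below unlesioned 1. Psmd9 measured 24.3, 23.5, 15.9 and 29.9 CPM in unlesioned and 23.2, 26.4, 26.5 and 37.7 CPM in lesioned libraries, and psmd10 had means of 18.9 ± 13.8 and 25.1 ± 6.08 CPM (SD, n = 4).

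Of the activators, which open the core in place of the regulatory particle, psme3 differed most clearly. Psme3 (chromosome 12, 27206736 to 27212880, minus strand, GRCz11), the nuclear activator in mammals, measured 83.2, 63.9, 105 and 57.5 CPM in unlesioned and 126, 112, 156 and 187 CPM in lesioned libraries. The groups did not overlap, and the log2 fold change was 0.91 ± 0.26 (SE; edgeR adjusted p = 0.225). Psme1, which interferon induces in mammals, measured 2.51, 3.67, 2.65 and 3.95 CPM in unlesioned and 11.3, 3.90, 3.98 and 5.71 CPM in lesioned libraries, and 1 library, lesioned 1, held most of the difference. Psme2, its partner, had means of 4.94 ± 2.91 and 5.80 ± 2.88 CPM (SD, n = 4). Psme2 shares 24.15% of its exon bases with other genes, so its level is uncertain. Psme4a and psme4b had log2 fold changes of -1.38 ± 0.86 and 0.34 ± 0.34 (SE), and their groups overlapped. Psmf1, an inhibitor of the core, measured 2.87, 1.99, 0 and 6.77 CPM in unlesioned and 3.45, 1.89, 4.02 and 7.48 CPM in lesioned libraries. The groups overlapped throughout.

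**Figure D5:**
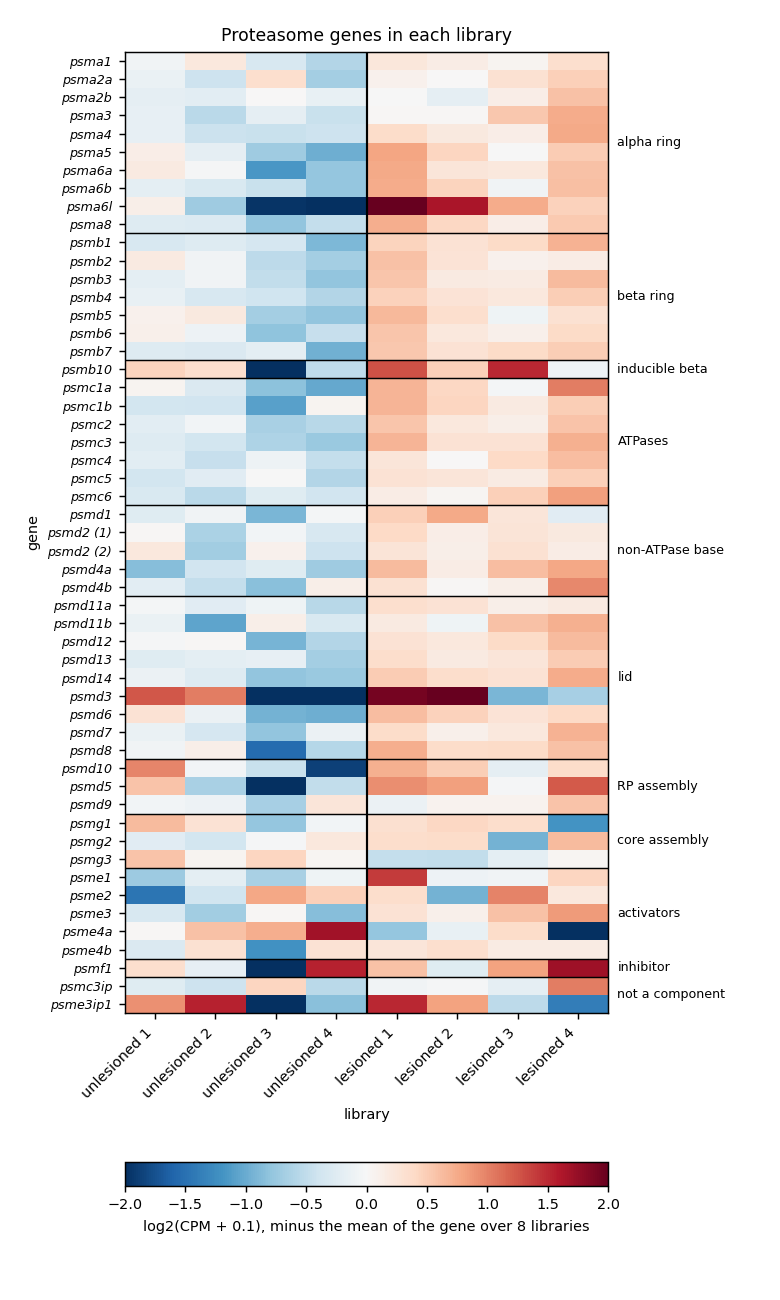
Log2(CPM + 0.1) of each tested proteasome entry minus its mean over the 8 libraries (colour), by gene (rows, grouped by role) and library (columns). The lesioned columns are mostly red, psmd3 splits by replicate number, and 27 of the 53 entries are highest in lesioned 4.

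The pathway around the proteasome was described with 3 lists. Of 25 tested genes of proteasome partners and ubiquitin supply, 0 passed edgeR's adjusted threshold, and the median log2 fold change was 0.36. At an unadjusted p under 0.05, 5 were higher, where the share over all genes was 6.07%, and 2 were lower, where it was 5.48%. Uba1, the main ubiquitin-activating enzyme, measured 112, 133, 131 and 110 CPM in unlesioned and 223, 261, 220 and 251 CPM in lesioned libraries. The groups did not overlap, and the log2 fold change was 0.97 ± 0.18 (SE; edgeR adjusted p = 0.136). Uchl5 and usp14, deubiquitinases that bind the regulatory particle, had log2 fold changes of 0.81 ± 0.20 and 0.89 ± 0.25 (SE), without overlap. Ubb, a polyubiquitin gene, has 2 entries. The entry most abundant in the list had means of 1141 ± 329 CPM in unlesioned and 649 ± 232 CPM in lesioned libraries (SD, n = 4). Its log2 fold change was -0.81 ± 0.30 (SE; edgeR adjusted p = 0.313). The other ubb entry had means of 757 ± 354 and 523 ± 195 CPM (SD, n = 4) and a log2 fold change of -0.53 ± 0.35 (SE). The groups of both entries overlapped. Sem1, of the lid, and adrm1, of the base, were named after their values were seen. They had log2 fold changes of 0.33 ± 0.28 and 1.01 ± 0.60 (SE), both with overlap.

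Of 16 tested genes around nrf1 (nfe2l1), the transcription factor that in mammals raises proteasome genes when proteasome activity is low, 0 passed edgeR's adjusted threshold. The median log2 fold change was -0.12. The list also holds nfe2l2, keap1, bach1 and hmox1a genes, so this median does not describe nrf1 alone. Nfe2l1a and nfe2l1b, named after their values were seen, had log2 fold changes of 0.01 ± 1.40 and -0.25 ± 0.30 (SE), with overlap. Within libraries 1 and 2 they had 2.74 and 0.18, and within libraries 3 and 4 -0.47 and -0.56. Over all genes, 6.07% were higher and 5.48% lower at an unadjusted p under 0.05. In this list 0 were lower and 1 gene was higher, which is near the share over all genes. That gene was ddi2, the protease that releases nrf1 in mammals, at 33.4 ± 7.68 CPM in unlesioned and 68.0 ± 28.4 CPM in lesioned libraries (SD, n = 4; log2 fold change 1.03 ± 0.31 SE; edgeR adjusted p = 0.234). Its groups did not overlap, and lesioned 4 was the highest. Mafk, maff and ogt.1 had log2 fold changes of -1.22 ± 0.58, -0.89 ± 0.71 and -0.36 ± 0.23 (SE), with overlapping groups. Another ogt.1 entry had -0.12 ± 0.27 (SE), also with overlap.

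Of 21 tested genes of antigen presentation and interferon, which share inducers with the immunoproteasome in mammals, 0 passed edgeR's adjusted threshold. At an unadjusted p under 0.05, 0 were higher and 3 lower, where the shares over all genes were 6.07% and 5.48%. The log2 fold change was positive for 9 of the 21, against 47.7% of all genes, and the median was -0.13. Mhc1uba, a class I antigen-presenting gene, had a log2 fold change of -1.50 ± 0.56 (SE) without overlap, and irf9, an interferon regulatory factor, had -1.02 ± 0.43 (SE) with overlap. B2ml, a relative of the class I light chain gene, had means of 259.5 ± 48.1 CPM in unlesioned and 207 ± 33.2 CPM in lesioned libraries (SD, n = 4), with overlap (log2 fold change -0.32 ± 0.21 SE). The light chain gene b2m itself, named after its values were seen, had the opposite sign, at 1.125 ± 0.56 (SE), with overlap.

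Another large protein complex and the ribosome were set beside the proteasome for scale. The 8 subunits of the cytosolic chaperonin had a median log2 fold change of 0.42, with 8 positive and 4 higher without overlap. The 79 cytosolic ribosomal protein genes had a median of 0.09, with 66 positive and 1 higher without overlap. Over all genes tested, 47.7% were positive and 5.32% were higher without overlap. The differences between these sets were not tested.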

How the data were processed

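The authors deposited unnormalized counts of reads for each gene. Per the submitters' processing notes, the tools were bcl2fastq 2.19.1, GSNAP and featureCounts 1.6.2. Per the file header, the counts were made with featureCounts 1.6.3 on GRCz11 with Ensembl 92 annotation, mapping quality of at least 1 and strand setting 0, so antisense reads cannot be told apart.

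The table gives gene IDs only. Of the 59 proteasome IDs, 7 were given with their zebrafish symbol, 50 were placed by shared neighbouring genes in the RefSeq GRCz12tu table and 2 had a single candidate. The members and lists were chosen with earlier results of these data known.

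The 4 lesioned and 4 unlesioned libraries were compared with edgeR 4.0.16 in R 4.3.3 (filterByExpr with a minimum count of 10, TMM, robust quasi-likelihood F-test) over 15759 genes, with two-sided p-values and Benjamini-Hochberg adjustment over all of them. The SE was the log2 fold change divided by the square root of F. The fit was tested on simulated data with larger differences than those of most proteasome genes and without the split by library number. That test cannot show how well differences of the size seen here are found. Values in every library are given for the 2 lowest p-values and the most abundant gene of each role, and for catalytic beta genes. A gene that the rule for the pathway lists would name is not reported here. Alternatives were DESeq2 1.42.0, limma 3.58.1, other scalings and filters, a replicate block, a term for libraries 1 and 2 against 3 and 4, and leaving out libraries.

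Deviations from the group means correlated across genes at 0.192, 0.182, 0.232 and 0.154 for same-numbered libraries, all over the 0.1 set for taking numbers as pairs. Unlesioned 2 with lesioned 1 (0.199) and unlesioned 1 with lesioned 2 (0.182) were as high, so numbers 1 and 2 are not told apart by this check. The main fit had group only and ignored these numbers, and the replicate block was an alternative. Reads carry no molecular identifiers, so limits from 0 counts (3 counts per library) cover counting error only.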

Additional observations from a re-analysis of the deposited data

Results flagged for a closer look

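Among 106 groups of 4 libraries, 1 library lay far from the other members of its group in 6 cases, and chance alone gives such cases in about 5% of groups. Unlesioned 4 was low for psmb1 (91.2 CPM), psmb7 (131 CPM) and psmd13 (72.6 CPM). Unlesioned 1 was high for psma4 (123 CPM). Lesioned 4 was high for psmc3ip (13.5 CPM) and low for psmg1 (10.7 CPM).

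Synthetic spike-in RNAs, which entered no comparison, had 158 counts in unlesioned 3, 87 in unlesioned 4, 86 in lesioned 3 and 64 in lesioned 4. Libraries 1 and 2 of both groups had 0 to 3, so these counts split the libraries by number and not by group.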

How the results depend on the processing

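Genes called numbered 3 in edgeR, 490 in DESeq2, 14 with the library-split term, 6 without a filter, 6 in libraries 1 and 2 alone and 0 in libraries 3 and 4 alone (868 at an unadjusted p under 0.05). Leaving out 1 library gave 3 to 8, the highest without unlesioned 3. Called proteasome entries numbered 0 under every edgeR and limma setting and 9 in DESeq2. With the replicate block, 0 entries and 2 genes were called, and 36 entries were higher at an unadjusted p under 0.05.

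The proteasome median ran from 0.58 without lesioned 4 to 0.78 without lesioned 2, with 49 to 51 entries positive. In libraries 3 and 4 alone it was 0.93, and 0.96 for the regulatory particle. The core to regulatory difference became -0.15 with medians of log2 levels of the tested genes, and ran from -0.07 to 0.01 when 1 library was left out. Leaving out the psmd2 entries and those sharing over 10% of exon bases, and leaving out psmd3, were chosen after seeing the data; the first gave a median of 0.72.

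Signs reversed for 3 entries with log2 fold changes near 0, and the cause was not tested. Psmg1 became 0.0241 with the library-split term, 0.0211 without a filter, 0.11 by library size alone and 0.20 in libraries 3 and 4, and ran from -0.22 to 0.26 when 1 library was left out. Psme3ip1 became -0.0635 in libraries 1 and 2, and ran from -0.579 to 0.668. Psme2 ran from -0.108 to 0.571.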
